A study of Mus musculus with 32 samples.

Results

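The epidermal ceramide synthesis genes described here are 10 genes of the pathway that makes and exports the ceramides of the skin barrier. They are Sptlc1, Sptlc2, Elovl1, Elovl4, Elovl7, Cers3, Cers4, Fa2h, Ugcg and Abca12. Each was taken as the array row that the platform annotation maps to its symbol, with the row of highest mean over all arrays standing for a symbol with several rows. All 10 had exactly 1 row, and these are 10 of the 22206 transcript rows tested (19505 genes with a symbol). Expression was measured on 32 Mouse Clariom D arrays, 1 sample each, from 8 mm punches of skin. The mice were NC/Nga, a laboratory strain in which dermatitis develops readily. The groups were HDM back skin, sham back skin, HDM ear and sham ear, with 8 mice in each. HDM is the agent that induced the dermatitis according to the series title, and neither it nor the sham treatment is described further in the labels. No group of another strain enters, and the labels state no age, sex or dose. A punch is whole skin, so hair follicles, sebaceous glands, fat and infiltrating cells contribute RNA beside the epidermis.

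Ceramides are built by joining a long-chain base, whose synthesis starts with serine palmitoyltransferase, to a fatty acid that elongases have lengthened. Ceramide synthases carry out the joining, each with a preference for certain acid lengths. The acid can be hydroxylated, and the ceramide is glucosylated before it is loaded into lamellar granules and released between the outermost cells of the epidermis. In skin, ceramides with ultra-long acids hold the water barrier of the cornified layer, while sebaceous glands make their own set of very long and hydroxylated lipids.

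All levels below are log2 expression values on the scale of the deposited table. A difference of 1 on that scale is a factor of 2 if the values were not rescaled, and the factors given below rest on that. Levels are compared only between samples for 1 gene, since levels of different probe sets cannot be set against each other. Differences come from a limma fit to all 32 arrays, with p-values adjusted by the Benjamini-Hochberg method over all 22206 rows. A gene is said to rise or fall where that adjusted p lay under 0.05, and errors are standard errors for differences and SD for group means. Where a count of 0 is given, the count at an unadjusted p under 0.05 was also 0 in limma unless stated. All 10 genes lay above the negative control level on all 32 arrays, with a lowest value of 8.41 and a highest of 19.24. Values near the ceiling of the table, 19.93, may be compressed.

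Some arrays stood apart from their group and are given here before the results. In sham back skin, mice 1 and 2 were the 2 highest of the 8 arrays for 8 of the 10 genes, all but Sptlc1 and Fa2h, a position they took in 11.1% of all rows. On the same 2 arrays the mean level of 9 genes of the growing hair follicle was 7.79 and 11.18, against 12.84 to 14.96 on the other 6. The mean of 5 neutrophil genes was 9.80 and 10.08, against 6.18 to 7.53. In HDM ear, mice 1, 2, 5 and 7 were the 4 lowest arrays for Elovl4, Elovl7, Cers4 and Fa2h and the 4 highest for Sptlc2, Cers3 and Ugcg. Where a call or count in back skin changed without sham mice 1 and 2, both are given. Each array correlated at 0.975 to 0.994 with the mean of its group without it, and 54.4% to 62.3% of rows were above background.

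In HDM back skin 3 of the 10 genes fell and 2 rose. The fatty acid hydroxylase Fa2h, the ceramide synthase Cers4 and the elongase Elovl4 were lower, by factors of 40.5, 17.0 and 2.35, while the ceramide synthase Cers3 and the glucosylceramide synthase Ugcg were higher, by factors of 3.19 and 2.81. Over all rows 8.56% fell and 6.18% rose, 14.7% in all, so the share of these genes that moved was larger than the share of all rows, as a description of genes chosen with results known. The ranges of HDM and sham back skin did not overlap for these 5 genes, against 4.16% of all rows. The median absolute difference was 0.87 for the 10 genes and 0.22 for all rows. In HDM ear 5 of the 10 genes rose and 2 fell, against 16.4% and 15.5% of all rows (31.9% in all), and the ranges did not overlap for 2, Sptlc2 and Cers3, against 7.65% of all rows. The split of all rows in back skin depended on the scaling: 1372 rose and 1901 fell as deposited, and 2433 rose and 1392 fell with the array medians made equal, which moved the median of all rows by 0.125. With that scaling the 5 genes kept their direction and their call, and the change of each was larger than this shift.

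**Figure D1:**
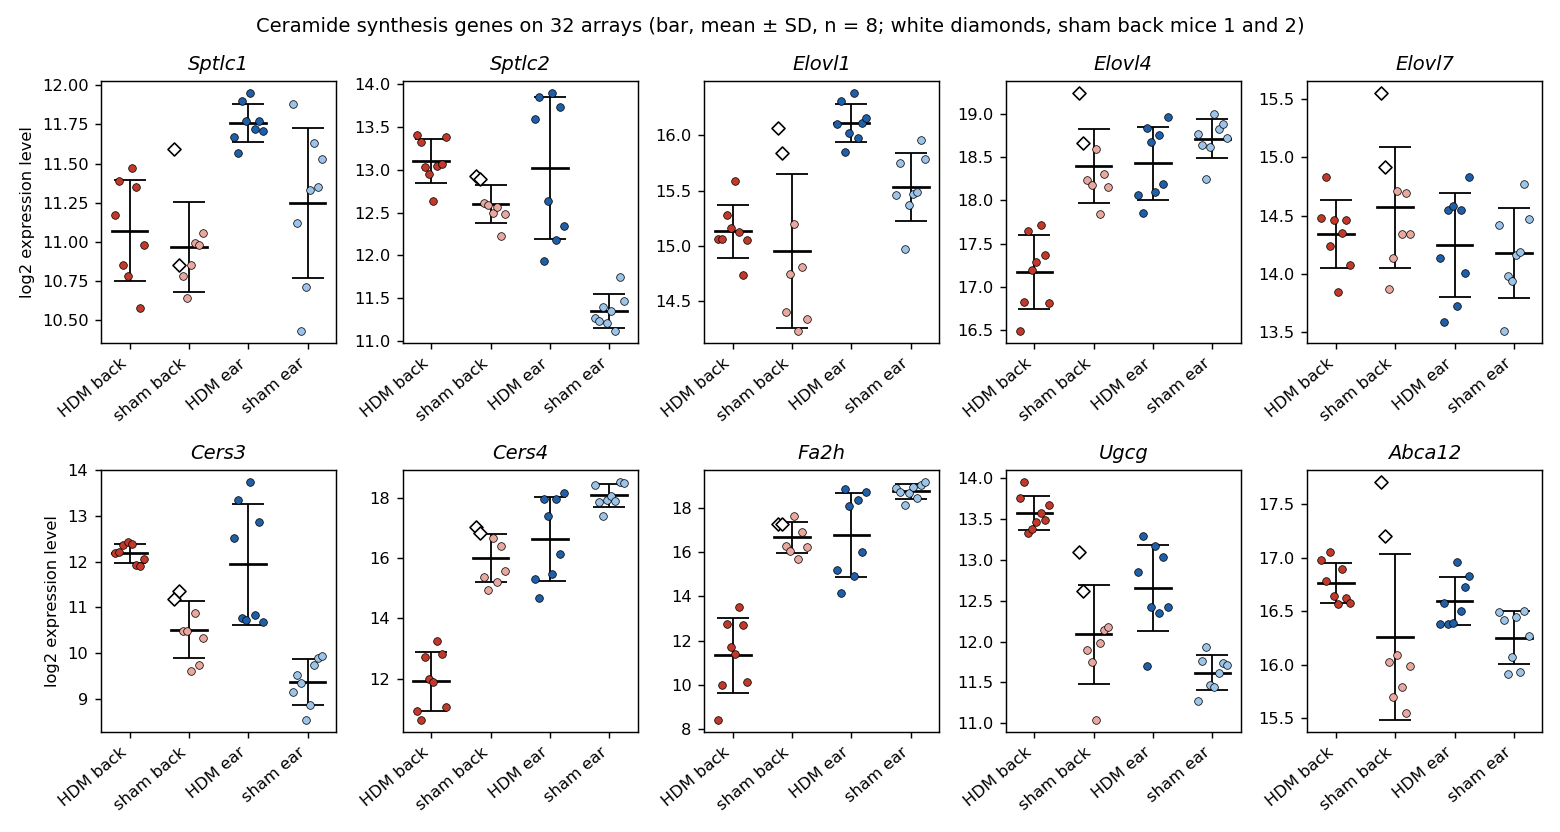
Log2 expression level of the 10 genes (y axes, 1 panel per gene, each with its own range) on every array of HDM back skin, sham back skin, HDM ear and sham ear, with bars for the mean ± SD (n = 8) and white diamonds for sham back mice 1 and 2. Cers4 and Fa2h are lowest in HDM back skin, with no overlap with sham back skin, and HDM ear values spread from 14.17 to 18.84 for Fa2h.

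The windows before the start sites of the called genes in back skin are shown because they let the 2 genes that fell (Cers4, Elovl4) be read beside the 2 that rose (Cers3, Ugcg). The RefSeq table used, of build GRCm38.p6, held windows for 9 of the 10 genes, and Fa2h is named only. Each window is the 250 bases upstream of an annotated start, 5′ to 3′ on the strand of the gene, with capitals marking matches to a motif searched. The windows lie at chr8:4493155-4493404 on the plus strand for Cers4, chr9:83806306-83806555 on the minus strand for Elovl4, chr7:66743254-66743503 on the plus strand for Cers3 and chr4:59189300-59189549 on the plus strand for Ugcg.
Cers4: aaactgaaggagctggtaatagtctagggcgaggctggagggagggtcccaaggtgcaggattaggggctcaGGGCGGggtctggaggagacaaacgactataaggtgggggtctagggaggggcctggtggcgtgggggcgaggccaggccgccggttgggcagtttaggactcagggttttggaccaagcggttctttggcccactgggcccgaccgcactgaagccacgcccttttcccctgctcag
Elovl4: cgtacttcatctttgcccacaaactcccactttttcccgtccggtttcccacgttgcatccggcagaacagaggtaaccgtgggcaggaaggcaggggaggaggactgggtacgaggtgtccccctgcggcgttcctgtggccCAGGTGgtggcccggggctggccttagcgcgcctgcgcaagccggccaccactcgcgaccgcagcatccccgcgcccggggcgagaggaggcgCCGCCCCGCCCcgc
Cers3: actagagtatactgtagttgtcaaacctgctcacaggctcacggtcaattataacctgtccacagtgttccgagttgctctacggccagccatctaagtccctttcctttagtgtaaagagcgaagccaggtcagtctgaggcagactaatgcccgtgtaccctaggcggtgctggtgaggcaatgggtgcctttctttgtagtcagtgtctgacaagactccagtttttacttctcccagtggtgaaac
Ugcg: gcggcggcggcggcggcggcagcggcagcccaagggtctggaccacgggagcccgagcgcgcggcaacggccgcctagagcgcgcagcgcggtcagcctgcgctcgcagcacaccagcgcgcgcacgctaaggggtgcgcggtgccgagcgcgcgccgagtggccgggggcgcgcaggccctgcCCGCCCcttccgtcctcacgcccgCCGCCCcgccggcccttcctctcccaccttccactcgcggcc

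The motifs were searched on both strands, in these windows and in all 32851 windows of the table. TATAAA, the TATA box, was found in 12.4% of all windows, and GGGCGG, the GC box, in 32.7%. TGANTCA, which AP-1 factors bind, was found in 6.75%, CANNTG, the E-box, in 66.2%, and CCAAT in 33.8%. The Cers4 window held 1 GGGCGG, the Elovl4 window 2 that overlap by 1 base and 1 CANNTG, and the Ugcg window 2 GGGCGG. The Cers3 window held none of these letters and was the poorest of the 4 in G and C, at 49.6%, against 80.4% for Ugcg. Such matches describe the letters of the window only.

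Long-chain base synthesis was represented by Sptlc1 and Sptlc2, subunits of serine palmitoyltransferase, which condenses serine with palmitoyl-CoA in the first and committed step of the pathway. Sptlc2 (row TC1200002122.mm.2) measured 12.64 to 13.41 in HDM back skin with a median of 13.06, against 12.23 to 12.93 in sham back skin with a median of 12.58. In ear it measured 11.93 to 13.90 with a median of 13.12 in HDM samples, against 11.11 to 11.74 with a median of 11.31 in sham samples. All 8 HDM ears lay above the highest sham ear, whereas 1 HDM back sample lay inside the sham back range. The rise in ear was 1.67 ± 0.22, a factor of 3.19, with an adjusted p of 8.98e-07 in limma. The difference in back skin was 0.51 ± 0.22 with an adjusted p of 0.13 and did not pass, although it was called (adjusted p = 0.0124) when only the 16 back arrays were fitted. The effect in ear exceeded that in back skin by 1.16 ± 0.32, with an adjusted p of 0.0152 for the interaction.

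Sptlc1 (row TC1300002017.mm.2) spanned 10.58 to 11.47 in HDM back skin, against 10.64 to 11.59 in sham back skin, with medians of 11.08 and 10.92. In ear the 8 HDM samples lay within 11.57 to 11.95, a narrow band at the top of the sham range of 10.43 to 11.88. Sptlc1 rose in ear by 0.51 ± 0.17 with an adjusted p of 0.0166, and all 8 HDM ears lay above the sham mean, though the ranges overlapped. In back skin the difference was 0.10 ± 0.17 with an adjusted p of 0.744.

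The 3 elongases lengthen acyl-CoA chains in the endoplasmic reticulum, Elovl1 and Elovl7 acting on saturated long chains and Elovl4 being the enzyme that makes the ultra-long chains of the epidermis. Elovl4 (row TC0900002767.mm.2) measured 16.49 to 17.72 in HDM back skin with a median of 17.25, against 17.84 to 19.24 in sham back skin with a median of 18.27. No HDM sample reached the lowest sham sample, and Elovl4 fell by 1.23 ± 0.19 log2 units (adjusted p = 2.51e-05). In ear the values were 17.85 to 18.96 in HDM samples, against 18.25 to 19.00 in sham samples. Here 4 HDM ears, mice 1, 2, 5 and 7, lay below all sham ears and the other 4 lay inside the sham range. The ear difference of −0.28 ± 0.19 had an adjusted p of 0.289. The interaction, ear minus back, was 0.95 ± 0.27 with an adjusted p of 0.0213. It was 0.76 with an adjusted p of 0.0613 without sham back mice 1 and 2.

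Elovl1 (row TC0400001307.mm.2) measured 15.85 to 16.38 in HDM ear, against 14.97 to 15.96 in sham ear, with medians of 16.11 and 15.48. It rose in ear by 0.58 ± 0.20 with an adjusted p of 0.0237, and 7 of the 8 HDM ears lay above the whole sham range. Without sham ear mouse 3, the lowest sham ear, the difference was 0.50 with an adjusted p of 0.0585. In back skin the HDM values of 14.74 to 15.59 all lay inside the sham range of 14.23 to 16.06, whose top was formed by mice 1 and 2 at 16.06 and 15.84. The back difference was 0.18 ± 0.20 (adjusted p = 0.616) with them and 0.51 ± 0.15 (adjusted p = 0.0223) without them.

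Elovl7 (row TC1300001204.mm.2) passed in none of the 5 comparisons. It spanned 13.85 to 14.83 in HDM back skin, against 13.87 to 15.55 in sham back skin, and 13.59 to 14.83 in HDM ear, against 13.51 to 14.77 in sham ear. The differences were −0.23 ± 0.21 in back skin and 0.07 ± 0.21 in ear, with adjusted p of 0.524 and 0.855, and 95% intervals of −0.65 to 0.19 and −0.35 to 0.49.

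The ceramide synthases Cers3 and Cers4 changed in opposite directions. Cers3, which joins ultra-long acids to the base and is required for the mouse water barrier, was higher in HDM samples at both sites. Cers4, which uses shorter acids and in mice is known from hair follicles and sebaceous glands, was lower at both. Cers3 (row TC0700000999.mm.2) measured 11.90 to 12.44 in HDM back skin with a median of 12.20, against 9.62 to 11.35 in sham back skin with a median of 10.49. In ear it measured 10.69 to 13.75 with a median of 11.68 in HDM samples, against 8.54 to 9.93 with a median of 9.44 in sham samples. The groups did not overlap at either site. Cers3 rose by 1.67 ± 0.37 in back skin (adjusted p = 0.00175) and by 2.57 ± 0.37 in ear, a factor of 5.93 (adjusted p = 2.31e-06).

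The HDM ear values of Cers3 fell into separate sets. Mice 1, 2, 5 and 7 measured 12.52, 13.35, 13.75 and 12.87, while mice 3, 4, 6 and 8 measured 10.78, 10.73, 10.83 and 10.69. Even the lower set lay above the highest sham ear, at 9.93. HDM back skin showed no such gap, with all samples within 11.90 to 12.44. The interaction for Cers3 was 0.90 ± 0.52 with an adjusted p of 0.299.

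Cers4 (row TC0800000036.mm.2) measured 10.63 to 13.26 in HDM back skin with a median of 11.95, against 14.96 to 17.03 in sham back skin with a median of 15.98. In ear it measured 14.67 to 18.16 with a median of 16.77 in HDM samples, against 17.40 to 18.54 with a median of 18.00 in sham samples. The back skin groups were separated by a gap, whereas in ear 4 HDM samples lay below all sham samples and 4 lay among them. Cers4 fell by 4.09 ± 0.45 in back skin (adjusted p = 1.31e-07) and by 1.45 ± 0.45 in ear, with 7 of 8 HDM ears below the sham mean (adjusted p = 0.0134). The effects differed between the sites by 2.65 ± 0.64 (adjusted p = 0.00725). These are bulk samples, in which fewer cells of a type and less RNA per cell cannot be told apart.

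Fa2h (row TC0800002948.mm.2) places the hydroxyl group of 2-hydroxylated ceramides and in mouse skin is known from sebaceous glands. In HDM back skin it measured 8.41, 10.01, 12.77, 11.71, 11.39, 13.50, 12.72 and 10.14 in mice 1 to 8, against 17.26, 17.29, 16.29, 16.04, 17.64, 15.70, 16.91 and 16.24 in sham mice 1 to 8. The highest HDM sample thus lay 2 units or more below the lowest sham sample, and the HDM samples themselves spread widely, with an SD of 1.71 against 0.70. Fa2h fell by 5.34 ± 0.63 log2 units, with an adjusted p of 3.41e-07.

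In HDM ear Fa2h measured 15.20, 14.17, 18.84, 18.07, 14.92, 18.38, 16.01 and 18.71 in mice 1 to 8, against 18.90, 18.74, 18.15, 18.68, 18.94, 18.44, 19.05 and 19.19 in sham mice 1 to 8. Mice 1, 2, 5 and 7 lay far below the sham ears, mouse 4 lay just below the lowest of them, and mice 3, 6 and 8 lay inside their range. The mean difference in ear was −1.97 ± 0.63 with an adjusted p of 0.0148. The interaction of 3.37 ± 0.89 had an adjusted p of 0.0129, so the measured fall of Fa2h was smaller in ear than in back skin. Sham ear values reached 19.19, near the ceiling of the table at 19.93. Whether compression there made the ear fall smaller was not tested.

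The fit pools 1 spread per gene over the 4 groups, while Fa2h, Cers4 and Cers3 spread more in HDM ear than in sham ear. Their SDs in HDM ear were 1.91, 1.40 and 1.31, against 0.34, 0.39 and 0.50 in sham ear. With array weights per group, which allow for unequal spread, all 10 genes kept their calls in each of the 5 comparisons.

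Ugcg (row TC0400000654.mm.2), which adds glucose to ceramide and so makes the form carried in lamellar granules, was higher in HDM samples at both sites. It measured 13.33 to 13.96 in HDM back skin with a median of 13.53, against 11.04 to 13.10 in sham back skin with a median of 12.06. In ear it measured 11.70 to 13.29 with a median of 12.64 in HDM samples, against 11.27 to 11.94 with a median of 11.67 in sham samples. All 8 HDM back samples exceeded the sham range, and 7 of 8 HDM ears did, mouse 3 being the exception at 11.70. Ugcg rose by 1.49 ± 0.21 in back skin (adjusted p = 6.19e-06) and by 1.04 ± 0.21 in ear (adjusted p = 0.000234). The interaction was −0.46 ± 0.30 with an adjusted p of 0.367.

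Abca12 (row TC0100002543.mm.2) carries glucosylceramide into lamellar granules, and its loss causes harlequin ichthyosis in humans. It spanned 16.57 to 17.05 in HDM back skin, against 15.55 to 17.71 in sham back skin, and 16.38 to 16.96 in HDM ear, against 15.91 to 16.50 in sham ear. In sham back skin mice 1 and 2 stood at 17.71 and 17.20, above every HDM back sample, and the other 6 at 15.55 to 16.09, below every one. The back difference was 0.51 ± 0.21 with an adjusted p of 0.107 over all arrays. It was 0.91 ± 0.13 with an adjusted p of 1.23e-05 without mice 1 and 2, 0.71 (adjusted p = 0.00383) without mouse 1 alone, 0.64 (adjusted p = 0.029) without mouse 2 alone, and 0.63 (adjusted p = 0.0305) with array medians made equal. In ear the difference was 0.34 ± 0.21 with an adjusted p of 0.247, and that p was 0.0309 when the sham back mice 1 and 2 were left out of the shared fit.

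Without sham back mice 1 and 2, Elovl1 and Abca12 joined Cers3 and Ugcg among the genes that rose in back skin, so that 4 rose and 3 fell, against 6.03% and 7.92% of all rows (14.0% in all). Cers4 then fell by 3.79 and Fa2h by 5.14, and Cers3 and Ugcg rose by 1.92 and 1.75. The sign of all 10 differences in back skin was the same with and without these mice. That of Elovl7, not called in either fit, shrank from −0.23 to −0.005 (adjusted p = 0.992 in limma).

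**Figure D2:**
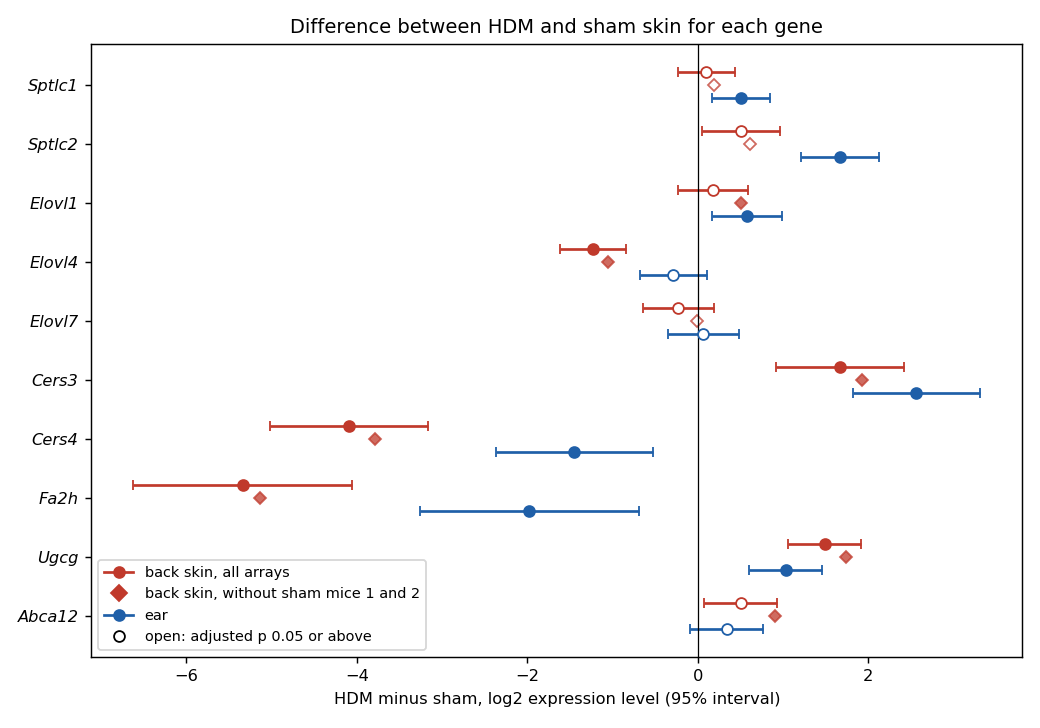
HDM minus sham difference of the log2 expression level (x axis) for the 10 genes (y axis) in back skin over all arrays (red circles), in back skin without sham mice 1 and 2 (red diamonds) and in ear (blue circles), with 95% intervals for the circles and open symbols where the adjusted p was 0.05 or above. Fa2h and Cers4 lie at −5.34 and −4.09 in back skin and nearer 0 in ear, and Cers3 and Ugcg lie to the right of 0 at both sites.

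The effect of HDM differed between sites for 4 of the 10 genes, Sptlc2, Elovl4, Cers4 and Fa2h, each with an ear effect more positive than the back effect, and for 0 in the other direction. Of all rows 6.77% were called in the first direction and 3.37% in the second, 10.1% in all. Without sham back mice 1 and 2, 3 genes (Sptlc2, Cers4 and Fa2h) were called in the first direction and 1 (Abca12, at −0.57 with an adjusted p of 0.0441) in the second, against 5.47% and 3.02% of all rows (8.49% in all). With the array medians made equal, the split of all rows was 1105 more positive and 1310 more negative, against 1503 and 748 as deposited. The same 4 genes kept their call under that scaling.

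Within HDM samples, 5 genes were higher in ear than in back skin, against 16.8% of all rows, and 1 was lower, against 11.2% (28.0% in all). Fa2h was higher in HDM ear by 5.46 ± 0.63, a factor of 43.9 (adjusted p = 3.81e-08), and Cers4 by 4.72 ± 0.45, a factor of 26.4 (adjusted p = 9.35e-10). Elovl4 was higher by 1.26 ± 0.19, Elovl1 by 0.98 ± 0.20 and Sptlc1 by 0.69 ± 0.17, with adjusted p of 4.34e-06, 0.000273 and 0.00171. Ugcg was lower in HDM ear, with a difference of −0.92 ± 0.21 (adjusted p = 0.00096). For these 6 genes the HDM ear and HDM back ranges did not overlap, against 7.92% of all rows. Elovl7, Cers3, Sptlc2 and Abca12 differed by −0.10, −0.24, −0.09 and −0.17, with adjusted p between 0.613 and 0.823.

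In sham samples 5 genes differed between the sites. In sham ear, against sham back skin, Fa2h was higher by 2.09 ± 0.63 (adjusted p = 0.0108), Cers4 by 2.08 ± 0.45 (adjusted p = 0.000581) and Elovl1 by 0.58 ± 0.20 (adjusted p = 0.0263). Sptlc2 was lower, with a difference of −1.25 ± 0.22 (adjusted p = 4.44e-05), and so was Cers3, at −1.14 ± 0.37 (adjusted p = 0.0174). These are 3 genes higher and 2 lower, against 15.6% and 14.1% of all rows (29.7% in all), and the ranges did not overlap for Fa2h, Cers4 and Sptlc2, against 8.54% of all rows. With array medians made equal the split of all rows was 5063 higher and 2462 lower, against 3469 and 3124 as deposited. Without sham back mice 1 and 2, Elovl4 (0.49, adjusted p = 0.0486) and Abca12 (0.40, adjusted p = 0.0214) were also higher in sham ear, and Cers3 (−0.89, adjusted p = 0.0903) was no longer called, which left 5 higher and 1 lower, against 15.1% and 13.3% of all rows (28.4% in all). The HDM and sham site differences and the differences between treatments share their samples, so they are given side by side only.

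By group mean, Fa2h, Cers4 and Elovl4 had one order of levels: sham ear was highest, then HDM ear, then sham back skin, and HDM back skin was lowest. For these genes only HDM back skin was separated by its range from its neighbour in the order. Cers3, Sptlc2 and Ugcg had another order, with HDM back skin highest, then HDM ear, sham back skin and sham ear. Abca12 had that order too, with sham back skin and sham ear nearly level at 16.26 ± 0.77 and 16.26 ± 0.25. Neighbouring groups overlapped throughout for Abca12 and Cers3. Sptlc2 was separated in sham ear, and Ugcg in HDM back skin. Sptlc1 and Elovl1 were highest in HDM ear, then in sham ear, HDM back skin and sham back skin, with overlap at each step. Elovl7 was highest in sham back skin, then in HDM back skin, HDM ear and sham ear, again with overlap at each step.

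Markers of sebocytes, the lipid-making cells of sebaceous glands, moved with the genes that fell, most clearly in back skin. Of 9 sebocyte genes measured of 10 listed, 7 were lower in HDM back skin and 0 higher, and their summed log2 level ran from 68.1 to 85.0 in HDM back skin, against 95.7 to 105.3 in sham back skin. In ear 4 were lower and 0 higher, with sums of 90.5 to 106.9 in HDM samples, against 103.5 to 110.5 in sham samples. The interaction was called for 6 genes with a more positive effect in ear and 1 with a more negative one, against 6.77% and 3.37% of all rows. Without sham back mice 1 and 2, 6 were called more positive and the more negative call was lost, against 5.47% and 3.02% of all rows. The defining wax and triglyceride synthesis genes Awat1 and Dgat2l6 differed by −4.29 ± 0.43 and −3.84 ± 0.37 in back skin (adjusted p = 1.89e-08 and 8.01e-09), and by −1.05 ± 0.43 and 0.28 ± 0.37 in ear (adjusted p = 0.0583 and 0.63). The desaturase Scd1 differed by −1.68 ± 0.18 in back skin and −0.30 ± 0.18 in ear (adjusted p = 7.78e-08 and 0.233). The 4 genes lower in ear were Far2 (−1.62 ± 0.55, adjusted p = 0.0216), Cidea (−1.45 ± 0.36, adjusted p = 0.00203), Mogat1 and Plin5. Of these, Plin5 lay below background in all 4 groups and Mogat1 in HDM back skin. Mogat1 was also near background in ear, at 4.42 in HDM samples, against 5.44 in sham samples. In HDM ear the 4 arrays lowest for Fa2h and Cers4, mice 1, 2, 5 and 7, were also the 4 lowest for the sebocyte mean, at 10.06 to 10.86 against 11.68 to 11.88 on the others. The same 4 mice were also the lowest for the basal keratinocyte, differentiated keratinocyte, adipocyte and Schwann cell means, so this order was not particular to sebocytes. The part of these cells in the fall of Fa2h, Cers4 and Elovl4 was not tested.

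**Figure D3:**
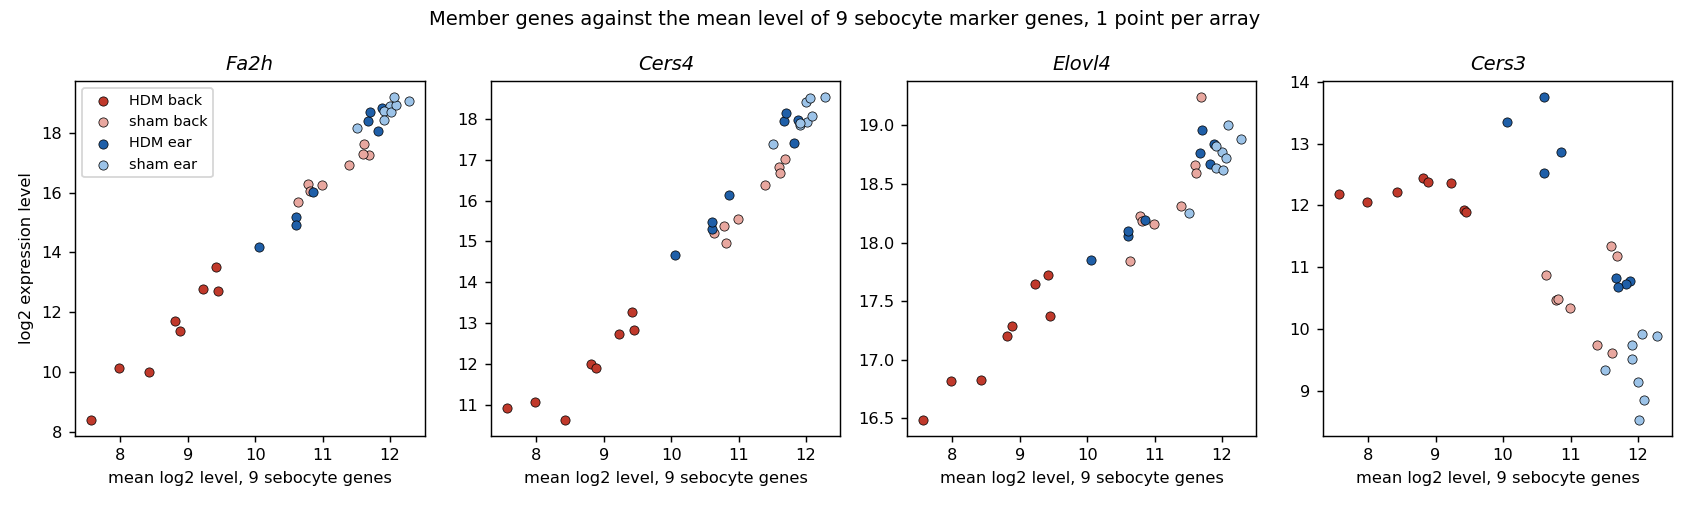
Log2 expression level of Fa2h, Cers4, Elovl4 and Cers3 (y axes) against the mean log2 level of 9 sebocyte marker genes (x axes), 1 point per array, coloured by group. HDM back arrays have the lowest sebocyte means, from 7.57 to 9.44, together with the lowest Fa2h and Cers4 values, and HDM ear arrays fall into separate sets on both axes.

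Lists of the epidermal cells moved in mixed directions. Of 6 basal keratinocyte genes 1 was higher (Krt14, at 1.12 ± 0.12 with an adjusted p of 7.78e-08) and 2 lower in HDM back skin, and 1 higher and 2 lower in HDM ear. Their sums ran from 94.0 to 96.7 in HDM back skin, against 94.7 to 100.2 in sham back skin, and from 92.6 to 101.2 in HDM ear, against 100.8 to 103.2 in sham ear. Krt15 had the largest difference of this list, at −2.26 ± 0.53 in back skin and −3.55 ± 0.53 in ear (adjusted p = 0.00299 and 3.85e-06). Also lower were Trp63 in back skin (−0.50 ± 0.15, adjusted p = 0.0215) and Col17a1 in ear (−1.67 ± 0.31, adjusted p = 8.35e-05). Of 8 differentiation genes 2 were higher and 3 lower in HDM back skin (2 and 2 without sham mice 1 and 2), and 3 higher and 4 lower in HDM ear. Their sums ran from 111.6 to 124.5 in HDM back skin, against 126.6 to 131.8 in sham back skin, and from 109.6 to 117.8 in HDM ear, against 117.5 to 121.2 in sham ear. The keratin Krt77 made up most of the difference of these sums. It differed by −9.93 ± 0.78 in back skin and −4.81 ± 0.78 in ear (adjusted p = 1.29e-10 and 1.37e-05). Krt1 differed by 0.18 ± 0.22 and 2.06 ± 0.22 (adjusted p = 0.666 and 2.24e-08), and Krt10 by −0.57 ± 0.14 and 0.01 ± 0.14 (adjusted p = 0.00643 and 0.971). The 2 genes higher in back skin were Dsc1 (0.62 ± 0.14, adjusted p = 0.00161) and Klk5 (0.96 ± 0.20, adjusted p = 0.000829).

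Other lists were counted in the same way, for HDM back skin and then HDM ear. The counts of the lists above and below stand beside these shares of all rows. In back skin 8.56% of all rows fell and 6.18% rose, and in ear 15.5% fell and 16.4% rose. All 5 neutrophil genes measured rose at both sites, with sums of 59.2 to 68.5 in HDM back skin, against 30.9 to 50.4 in sham back skin. In HDM ear the sums were 55.1 to 83.5, against 22.5 to 33.7 in sham ear. The largest back differences of this list were those of S100a9 (8.57 ± 0.84) and S100a8 (7.69 ± 0.79). Csf3r, Retnlg and Cxcr2 differed there by 4.38 ± 0.82, 3.18 ± 0.95 and 2.51 ± 0.64. Punches are whole skin, so the cells that gave the RNA of these genes were not told apart. Of 5 macrophage and monocyte genes 0 rose in back skin by limma, where 2 were higher at an unadjusted p under 0.05 and 2 rose without sham mice 1 and 2, and 5 rose in ear. Their sums ran from 56.1 to 59.2 in HDM back skin, against 51.2 to 60.4 in sham back skin, and from 57.8 to 67.3 in HDM ear, against 49.99 to 52.90 in sham ear. Of 4 cell cycle genes 2 rose in back skin and 4 in ear, with sums of 43.7 to 46.0 in HDM back skin, against 38.7 to 44.0 in sham back skin, and 41.4 to 46.6 in HDM ear, against 36.4 to 39.1 in sham ear. Of 5 adipocyte genes 4 fell in back skin and 5 in ear, and of 4 Schwann cell and myelin genes 2 fell at each site (1 in back skin without sham mice 1 and 2). Of 6 skeletal muscle genes 0 were called in back skin and 6 fell in ear, and of 9 hair follicle genes 0 were called in back skin and 1 fell in ear. The mean of the hair follicle genes ran from 7.79 to 14.96 in sham back skin, so a change there could be missed. Within HDM ear, mice 1, 2, 5 and 7 were the 4 highest for the neutrophil, macrophage and cell cycle means, as for Sptlc2, Cers3 and Ugcg. The part of these cells in the rise of Sptlc2, Cers3 and Ugcg was not tested.

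Genes whose pattern over the arrays was most like that of the most changed members are given by Pearson's r over the 32 arrays, with r of the deviations from the group means after it. The arrays fall into 4 groups and all genes share the same arrays, so r is a description without a test. For Fa2h the 3 most alike genes were Mgll (0.99 and 0.95), Elovl3 (0.99 and 0.93) and its fellow member Cers4 (0.99 and 0.94). For Cers4 they were Mgll (0.99 and 0.96), Fa2h and Aadacl2fm2 (0.99 and 0.90). For Cers3 they were Cnfn (0.96 and 0.89), Blmh (0.96 and 0.88) and Hif1a (0.96 and 0.87). Mgll is a monoacylglycerol lipase, Cnfn a component of the cornified envelope, Blmh a protease that acts on filaggrin fragments and Hif1a a hypoxia-responsive transcription factor.

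Of 51 other genes of the ceramide pathway 48 were measured. In HDM back skin 15 of the 48 fell and 5 rose, against 8.56% and 6.18% of all rows, and 16 fell and 6 rose without sham mice 1 and 2, against 7.92% and 6.03%. In HDM ear 17 fell and 14 rose, against 15.5% and 16.4% of all rows. The effect was more positive in ear for 9 of them and more negative for 0 in the limma interaction (5 at an unadjusted p under 0.05), against 6.77% and 3.37% of all rows. These counts were 8 and 3 without sham back mice 1 and 2, and 7 and 3 with array medians made equal. Their median difference was −0.41 in back skin and −0.21 in ear, against 0.01 and −0.02 for all rows.

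Fatty acid elongation held the largest falls of this list. Of 10 genes 6 fell and 0 rose in back skin, and 5 fell and 2 rose in ear. Elovl3, an elongase known from sebaceous glands and also on the sebocyte list, measured 12.05 ± 1.40 in HDM back skin, against 15.84 ± 0.77 in sham back skin, a difference of −3.79 ± 0.47 (adjusted p = 8.11e-07). In ear its difference of −1.18 ± 0.47 did not pass (adjusted p = 0.0537), and the effects differed by 2.61 ± 0.66 (adjusted p = 0.01). Elovl6, which lengthens palmitate, differed by −3.40 ± 0.53 in back skin and −1.83 ± 0.53 in ear (adjusted p = 2.54e-05 and 0.00693). Elovl5, an elongase of polyunsaturated acids, differed by −2.67 ± 0.29 and −0.98 ± 0.29 (adjusted p = 7.78e-08 and 0.00853). The dehydratase Hacd2 of the elongation cycle differed by −2.08 ± 0.29 and −1.06 ± 0.29 (adjusted p = 4.36e-06 and 0.00438). The 2 elongation genes that rose in ear were the dehydratases Hacd1 (1.01 ± 0.25, adjusted p = 0.00203) and Hacd4 (1.18 ± 0.30, adjusted p = 0.00236).

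Among the other ceramide synthases Cers5, which uses palmitoyl-CoA, measured 10.45 ± 0.23 in HDM back skin, against 13.32 ± 0.74 in sham back skin. It fell by 2.88 ± 0.27 in back skin (adjusted p = 4.33e-09) and by 0.82 ± 0.27 in ear (adjusted p = 0.0172), and the effects differed by 2.06 ± 0.38 (adjusted p = 0.00062). Cers6 fell by 0.73 ± 0.19 in back skin (adjusted p = 0.00909), and Cers2 was not called at either site. With the members, Cers4, Cers5 and Cers6 were thus lower and Cers3 higher in HDM back skin.

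Of 8 other genes of long-chain base synthesis 0 passed in back skin by limma, where 2 were lower at an unadjusted p under 0.05, and 1, Ormdl3, fell without sham back mice 1 and 2. In ear the desaturases Degs1 and Degs2, which turn dihydroceramide into ceramide and phytoceramide, rose by 1.19 ± 0.18 and 1.45 ± 0.33 (adjusted p = 7.13e-06 and 0.000856), as did the regulator Ormdl2 by 0.68 ± 0.18 (adjusted p = 0.00357). The reductase Kdsr and the regulator Ormdl3 fell by 0.87 ± 0.25 and 0.69 ± 0.18 in ear (adjusted p = 0.00634 and 0.00386).

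Of 5 genes that oxidise the linoleate of acylceramide and attach it to the cornified envelope, 3 rose in back skin and 4 in ear, and 0 fell. Sdr9c7, a dehydrogenase of this route, measured 14.38 ± 0.25 in HDM back skin, against 12.23 ± 1.01 in sham back skin, and rose by 2.14 ± 0.29 in back skin and 1.16 ± 0.29 in ear (adjusted p = 2.76e-06 and 0.00177). The transglutaminase Tgm1 rose by 1.21 ± 0.23 and 1.80 ± 0.23 (adjusted p = 0.00031 and 3.63e-07), and the lipoxygenase Alox12b by 1.07 ± 0.33 and 1.27 ± 0.33 (adjusted p = 0.0241 and 0.00285). The epoxide hydrolase Ephx3 rose in ear by 1.64 ± 0.23 (adjusted p = 1.63e-06), and its back difference was 0.39 ± 0.23 (adjusted p = 0.274). Aloxe3, the lipoxygenase that acts after Alox12b, was called at neither site, with differences of −0.14 ± 0.32 and −0.62 ± 0.32 (adjusted p = 0.836 and 0.147). Of the 4 genes of omega-hydroxylation and acylceramide formation, the acyl-CoA synthetase Slc27a4 fell in back skin by 1.56 ± 0.32 and in ear by 1.55 ± 0.32 (adjusted p = 0.000829 and 0.000263), and the transacylase Pnpla1 of acylceramide synthesis rose in ear by 0.51 ± 0.19 (adjusted p = 0.0376). Without sham back mice 1 and 2 the lipase cofactor Abhd5 also rose in back skin, by 0.40 (adjusted p = 0.0393).

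**Figure D4:**
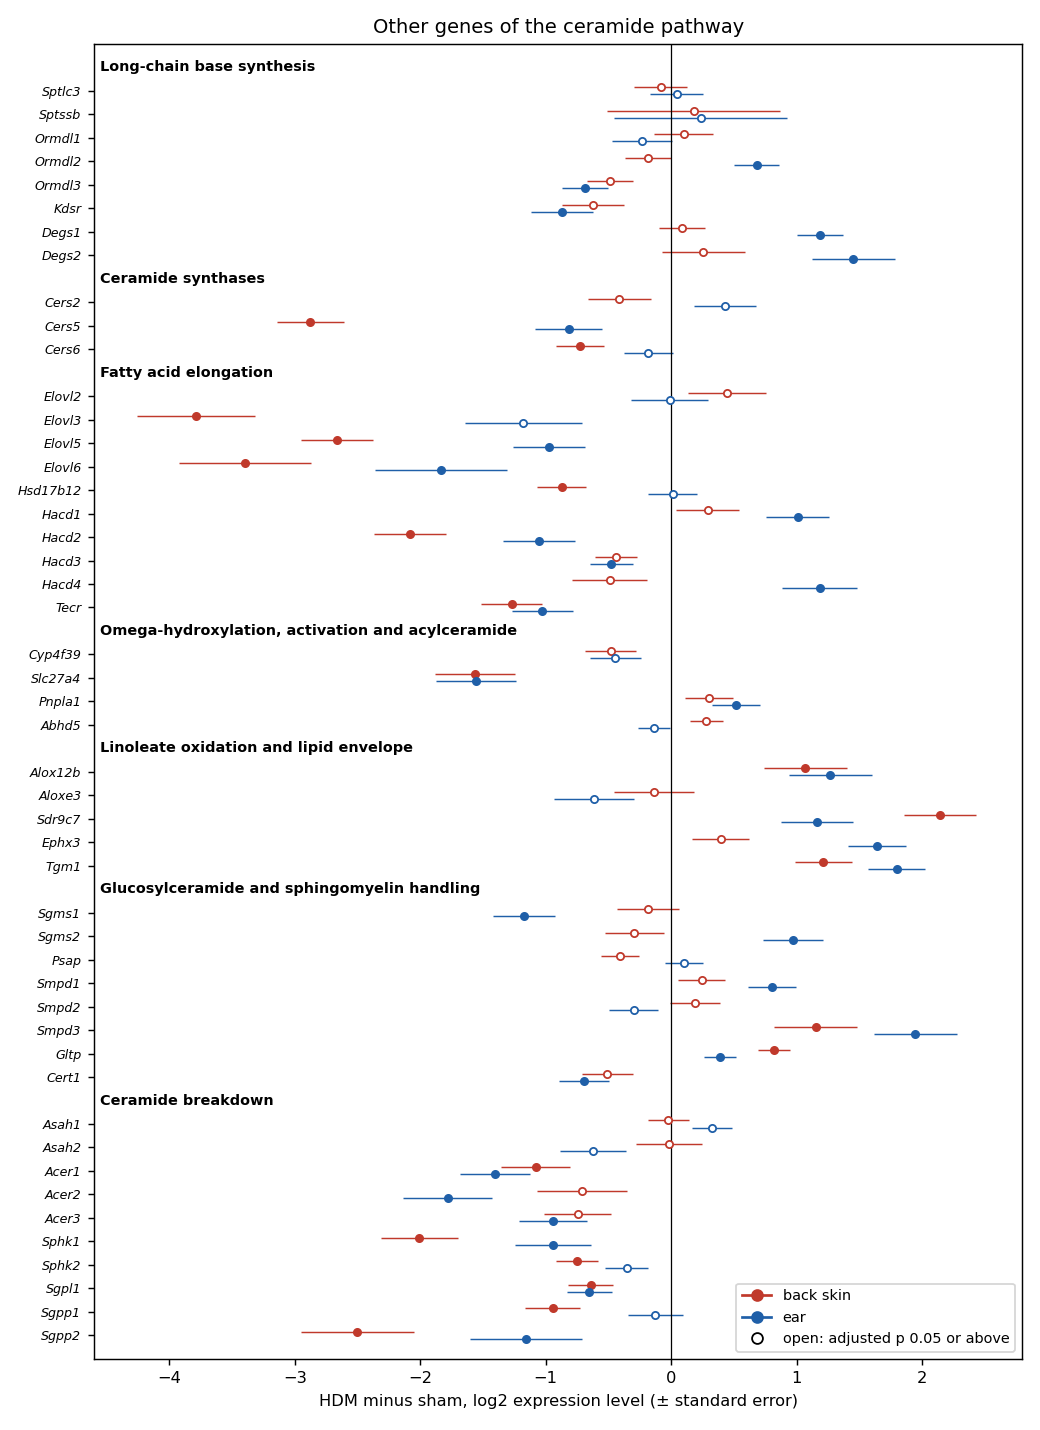
HDM minus sham difference of the log2 expression level (x axis, ± standard error) for the 48 other measured genes of the ceramide pathway (y axis, in groups by role) in back skin (red) and ear (blue), with open symbols where the adjusted p was 0.05 or above. Elovl3, Elovl6, Cers5 and Elovl5 lie farthest to the left in back skin, and Sdr9c7 farthest to the right.

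Of 8 genes that handle glucosylceramide and sphingomyelin 2 rose in back skin, and 4 rose and 2 fell in ear. The neutral sphingomyelinase Smpd3 rose by 1.15 ± 0.33 in back skin and 1.95 ± 0.33 in ear (adjusted p = 0.0153 and 2.48e-05), and the glycolipid transfer protein Gltp by 0.82 ± 0.13 and 0.39 ± 0.13 (adjusted p = 3.55e-05 and 0.02). The acid sphingomyelinase Smpd1 and the sphingomyelin synthase Sgms2 also rose in ear, by 0.81 ± 0.19 and 0.97 ± 0.24 (adjusted p = 0.00115 and 0.00172), and the synthase Sgms1 and the ceramide transfer protein Cert1 fell there by 1.17 ± 0.25 and 0.69 ± 0.20 (adjusted p = 0.000387 and 0.00729).

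Genes of ceramide breakdown and of sphingosine phosphate turnover, taken as 1 group, fell or were not called. Of 10, 6 fell in back skin and 6 in ear, and 0 rose at either site. Sphk1, a sphingosine kinase, differed by −2.01 ± 0.30 in back skin and −0.94 ± 0.30 in ear (adjusted p = 1.76e-05 and 0.0157). Sgpp2, a phosphatase of sphingosine phosphate, differed by −2.50 ± 0.45 and −1.16 ± 0.45 (adjusted p = 0.000188 and 0.0473). The alkaline ceramidase Acer2 differed by −1.78 ± 0.36 in ear (adjusted p = 0.000195) and −0.71 ± 0.36 in back skin (adjusted p = 0.195).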

How the data were processed

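The 32 arrays held 1 sample each, from punches of ear or dorsal skin of NC/Nga mice. The deposited table gives log2 levels, which the authors computed by RMA (background correction, quantile normalization and summary) with the software Transcriptome Analysis Console, according to the submitters' notes. The genome build, like the tool versions, is not given in the sources used here. The deposited log2 values have a wide range for RMA, and if they had been rescaled, signs of differences would stand but folds would not. RNA was extracted from homogenised punches kept in RNAlater for at least 18 h, and 100 ng was labelled per sample.

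Of 28846 rows, 6640 array controls were left out. The background of an array was the median of its negative controls, 4.43 to 5.38. Group means of the other 22206 rows were fitted without covariate or block by lmFit and eBayes of limma 3.58.1 (R 4.3.3, two-sided tests, 32.1 degrees of freedom), with Benjamini-Hochberg adjustment over all rows within each of 5 comparisons. The number of arrays limits the precision. The labels do not say whether a mouse number names the same animal at both sites, so p-values measure the spread between these samples.

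The members, the 51 other pathway genes and 10 marker lists (sebocytes, anagen hair follicle, basal and differentiated keratinocytes, adipocytes, skeletal muscle, Schwann cells and myelin, macrophages and monocytes, neutrophils, cell cycle) were chosen with earlier results of these data known. Listed genes with no array row used here stayed out of the counts, and some are not reported here by name. Named are all members, up to 12 other pathway genes with the largest called differences in back skin or ear, genes needed to state counts of 5 or fewer, the 3 most correlated genes of the most changed members and first-listed markers. Cers2, Aloxe3, Abhd5, Mogat1, Plin5, Far2, Cidea, Col17a1, Dsc1 and Klk5 were named after their values were seen. Alternatives were equal array medians, a filter on dim rows, replicate blocks, fits of 16 arrays, array weights, a trended robust prior, the median row of a symbol, leaving out sham back mice 1 and 2, and, added after the data were seen, leaving out each array in turn.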

Additional observations from a re-analysis of the deposited data

Results flagged for a closer look

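The effect of HDM differed between ear and back skin in a direct test for 4 of the 10 genes (limma interaction, ear minus back), against 10.1% of all rows. The difference of the effects was 1.16 for Sptlc2, 0.95 for Elovl4, 2.65 for Cers4 and 3.37 for Fa2h, with adjusted p of 0.0152, 0.0213, 0.00725 and 0.0129. Without sham back mice 1 and 2, Elovl4 was not called (0.76, adjusted p = 0.0613). Sptlc1 in sham back skin had 1 array far from the others: mouse 1 measured 11.59 and the next highest array 11.06, a gap of 0.558 of the range of the group. In all 40 groups of arrays were examined in this way, 10 genes in 4 groups, and chance gives about 1 such array in 20 groups.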

How the results depend on the processing

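Leaving out sham back mice 1 and 2 changed the counts of called members: 4 rose in back skin in place of 2, and Abca12 also rose in ear (adjusted p = 0.0309 in limma). In the interaction 3 had a more positive effect in ear in place of 4, and 1 a more negative effect in place of 0. Between the sham sites 5 were higher and 1 lower in ear than in back skin, in place of 3 and 2. The difference of Abca12 between sham ear and sham back skin turned to 0.40 without them, against −0.0025 with them. Of the 50 member results (10 genes in 5 comparisons), 8 changed their call or sign with that setting, 1 with array medians made equal, and 0 with each replicate block, the dim-row filter (13660 rows kept), array weights, the trended robust prior or the median row of a symbol, the last because each listed gene had 1 row. Of the 40 results that fits of only 16 arrays can give, 2 changed: Sptlc2 in back skin, given above, and Elovl1 between sham sites (0.58, adjusted p = 0.0908). Leaving out single arrays moved members called higher in back skin between 2 and 3, and lower at 3. With array medians made equal, 2433 rows rose in back skin against 1372, and 1310 had a more negative effect in ear against 748.

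Same-numbered back and ear arrays deviated together in 1 of 8 HDM pairs and 0 of 8 sham pairs (correlation over 0.1), and 1 and 0 arrays correlated best with their own number, so the numbers were not taken to pair samples. With the replicate block, the fixed block by number changed no member call. Signals near background and near the ceiling limit what low and very bright genes can show.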
